A study of Mus musculus with 12 samples.

Results

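Lipolysis enzymes and their regulators were followed through adipocyte differentiation in mouse embryonic fibroblasts with and without the triacylglycerol-making enzymes DGAT1 and DGAT2. The set was chosen by gene name: the lipases Pnpla2, Pnpla3, Lipe, Mgll, Ces1d and Lipa, the Pnpla2 coactivator Abhd5, the Pnpla2 inhibitor G0s2, and the cyclic AMP phosphodiesterase Pde3b. These were 9 of the 19938 genes measured by a probe set with a single gene, and each of the 9 had 1 probe set. Expression was read in 12 samples on single-colour whole-transcript arrays, 3 samples in each of 4 groups. The cells came from C57BL6 embryos at embryonic day 14 and were grown in DMEM with fetal bovine serum. The WT groups carried neither deletion, the D1D2KO groups lacked both Dgat1 and Dgat2, and each genotype was taken undifferentiated or differentiated. Differentiation began 2 days after confluence with dexamethasone at 1 µM, isobutylmethylxanthine at 500 µM, insulin at 5 µg/ml and troglitazone at 15 µM, went on for 2 days in insulin with troglitazone alone, and ended in plain growth medium until harvest. Isobutylmethylxanthine is itself a phosphodiesterase inhibitor and troglitazone activates the receptor PPARG, so every differentiated sample had met both agents, in either genotype. The labels do not say whether samples of a group came from separate embryos or cultures, so p-values measure only the spread among these samples.

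Lipolysis breaks the stored triacylglycerol of the lipid droplet in steps. PNPLA2, also called adipose triglyceride lipase, releases the first fatty acid with the help of ABHD5 and is held back by G0S2, hormone-sensitive lipase (Lipe) takes the next, and monoglyceride lipase (Mgll) splits the remaining monoacylglycerol. Catecholamines and other hormones switch the pathway on through cyclic AMP and protein kinase A, which phosphorylates hormone-sensitive lipase and the droplet coat protein perilipin 1, while insulin switches it off in part through PDE3B. Lysosomal acid lipase (Lipa) degrades lipid delivered to lysosomes and stands outside this cascade.

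On differentiation 8 of the 9 genes rose and Lipa fell, in WT and D1D2KO cells alike, where 14.7% and 15.4% of all genes were called upward. The rises ran from 2.85-fold for Mgll to 17.2-fold for G0s2 in WT cells and from 5.25-fold for Mgll to 25.5-fold for G0s2 in D1D2KO cells. Between genotypes the differences were far smaller. Before differentiation Mgll was the only one of the 9 that passed the test, against 8.02% of all genes. It was at 63.2% of its WT signal in D1D2KO cells. After differentiation Pnpla2, Abhd5, Ces1d and Pde3b were called higher in D1D2KO cells, by 1.23-fold to 1.93-fold. Over all genes 13.7% were called there, 6.25% upward. The calls of Pnpla2 and Abhd5 depended on single samples. Mgll and Pde3b rose more in D1D2KO than in WT cells when the responses themselves were compared, a test passed by 1.46% of all genes.

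The values are log2 array signals as deposited, so a difference of 1 is a doubling, and signals of different probe sets share no scale. Samples of a group correlated at 0.993 to 0.997 over all genes. A gene was called changed where its p from limma's moderated test, adjusted by Benjamini and Hochberg's method over all genes, was under 0.05. Dgat1 signal in D1D2KO cells was 39.4% of WT undifferentiated (limma adjusted p = 6.98e-07) and 38.2% differentiated (adjusted p = 3.59e-07). Dgat2 was at 72.0% (adjusted p = 0.0345) and 31.4% (adjusted p = 3.53e-07), and its undifferentiated call ended when any 1 of the 6 undifferentiated samples was left out, with an adjusted p of up to 0.126. Both signals still rose on differentiation in D1D2KO cells, that of Dgat1 5.31-fold and that of Dgat2 8.38-fold, against 5.48-fold and 19.2-fold in WT. Where these probe sets lie relative to the deleted parts was not analysed here, so the remaining signal checks the labels only in direction. The adipocyte genes Adipoq, Pparg and Cebpa rose on differentiation by 6.03, 3.97 and 2.31 log2 in WT and by 7.41, 4.10 and 2.84 in D1D2KO cells. All 9 measured genes of an adipocyte list were called higher in either genotype. Macrophage genes were also read in the undifferentiated cultures, with a mean log2 signal over 13 genes of 9.64 to 9.72 in WT and 9.58 to 9.65 in D1D2KO samples, as was the fibroblast list.

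**Figure D1:**
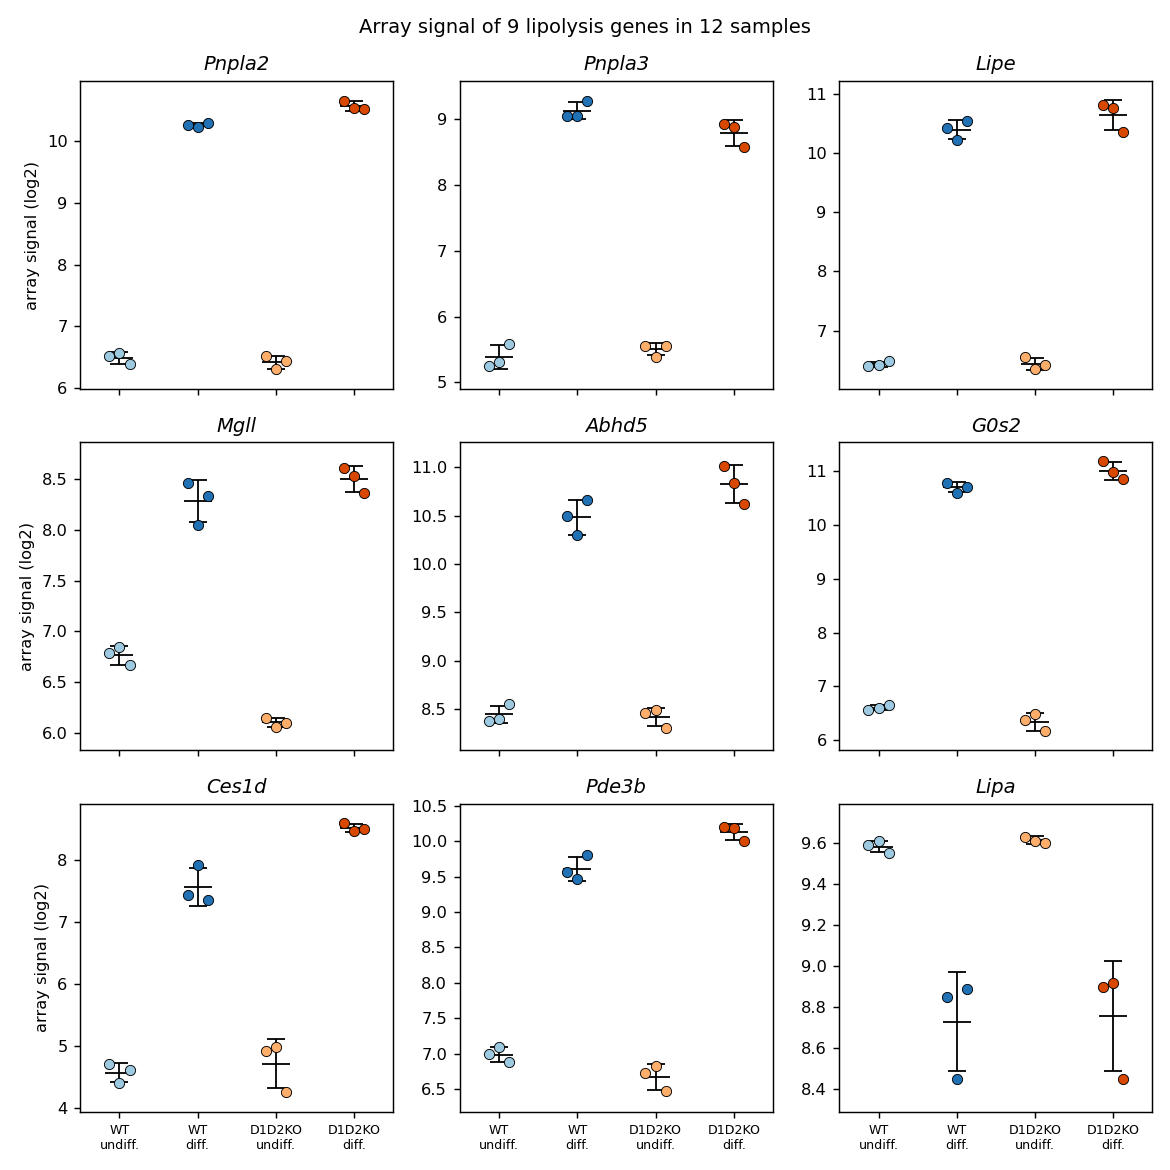
Array signal (log2) of the 9 lipolysis genes in each of the 12 samples, by genotype and state, on a separate vertical scale for each gene that does not start at 0. Points are samples, the long bar is the group mean and the whiskers are 1 SD (n = 3). Of these genes 8 sit higher in differentiated cells of both genotypes with no overlap, and Lipa sits lower.

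The 250 bases before the annotated start of Pnpla2, G0s2, Lipe and Mgll are shown because these genes encode the cascade's lipases and the inhibitor of the first of them, and rose together on differentiation. Sequences are from RefSeq on GRCm38.p6, written 5′ to 3′ on the strand of the gene, at chr7:141454938-141455187 (plus strand) for Pnpla2, chr1:193273189-193273438 (minus strand) for G0s2, chr7:25395988-25396237 (minus strand) for Lipe start 1 and chr6:88724162-88724411 (plus strand) for Mgll start 1. Capitals mark every match on either strand to AGGTCA (the core site of nuclear receptors), CACGTG (an E-box), TGACGTCA (the cyclic AMP response element) or GGGCGG (a GC box, which reads CCGCCC on the other strand).
Pnpla2: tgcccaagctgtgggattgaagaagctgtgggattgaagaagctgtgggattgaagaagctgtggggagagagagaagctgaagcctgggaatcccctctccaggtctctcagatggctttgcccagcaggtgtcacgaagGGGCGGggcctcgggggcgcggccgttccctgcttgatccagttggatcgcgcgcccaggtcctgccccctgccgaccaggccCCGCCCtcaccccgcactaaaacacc
G0s2: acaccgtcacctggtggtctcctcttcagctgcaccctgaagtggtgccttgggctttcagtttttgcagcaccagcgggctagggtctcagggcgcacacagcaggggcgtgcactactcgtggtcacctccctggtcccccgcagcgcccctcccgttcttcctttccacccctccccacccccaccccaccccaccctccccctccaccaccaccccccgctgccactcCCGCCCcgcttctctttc
Lipe start 1: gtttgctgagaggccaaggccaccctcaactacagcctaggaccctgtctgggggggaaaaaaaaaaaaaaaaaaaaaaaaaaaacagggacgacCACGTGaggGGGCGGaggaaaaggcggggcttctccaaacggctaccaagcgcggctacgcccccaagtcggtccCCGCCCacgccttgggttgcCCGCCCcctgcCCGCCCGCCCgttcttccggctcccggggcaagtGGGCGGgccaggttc
Mgll start 1: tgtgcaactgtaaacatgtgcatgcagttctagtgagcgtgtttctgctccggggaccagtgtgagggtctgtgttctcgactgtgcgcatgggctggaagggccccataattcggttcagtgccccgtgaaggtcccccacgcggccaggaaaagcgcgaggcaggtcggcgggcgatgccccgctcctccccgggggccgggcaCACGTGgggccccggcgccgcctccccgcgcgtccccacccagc
Pnpla2 held 2 GC boxes, at 109 and 26 bases before the start, and G0s2 held 1, at 18 bases. Lipe start 1 held 6 GC boxes and a CACGTG at 155 bases, whereas a second annotated start of Lipe held none of the motifs. The CACGTG of Mgll start 1 lay 44 bases before the start, and the second start of Mgll held a single GC box. Of 32851 starts in the table, 32.7% held GGGCGG, 6.02% CACGTG, 14.02% AGGTCA and 1.55% TGACGTCA in windows of this length. Among the members, 7 had a start in the table, with 9 starts in all. AGGTCA was matched once, 69 bases before the start of Abhd5, and TGACGTCA once, 46 bases before that of Pnpla3. A pair of AGGTCA 1 base apart, the layout bound by PPARG with its partner RXR, was in 11 starts of the whole table and in 0 of the members' starts. A match is a string of letters in this window and not a measured site, and a missing match says nothing on whether a factor acts on the gene.

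Differentiation was compared first within WT cells, where all 9 genes were called, 8 up and 1 down. Over all genes 34.1% were called, 14.7% upward and 19.4% downward. The median log2 difference of the 9 was 3.00, against 0.02 over all genes. Each of the 8 rises was over 2-fold, as were those of 519 genes, 2.60% of all. In D1D2KO cells again 8 were called up and 1 down, against 36.7% of all genes called, 15.4% upward and 21.2% downward. The median of the members was 3.45 there, against 0.01. The groups of all 9 members were free of overlap in both genotypes, as were 43.9% of all genes in WT and 48.1% in D1D2KO cells. In bulk samples more cells of a type and more RNA per cell cannot be told apart, which holds for every rise below.

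Pnpla2, the lipase of the first step, read 6.51, 6.57 and 6.38 in undifferentiated WT samples, 10.26, 10.24 and 10.30 in differentiated WT, 6.51, 6.30 and 6.43 in undifferentiated D1D2KO and 10.66, 10.54 and 10.52 in differentiated D1D2KO samples. Every differentiated sample lay far above every undifferentiated one, while the undifferentiated genotypes overlapped and the differentiated ones did not. Differentiated genotypes were free of overlap for 30.9% of all genes. It rose 13.7-fold in WT (log2 difference 3.78, SE 0.08, limma adjusted p = 4.41e-15) and 17.8-fold in D1D2KO cells (4.16, SE 0.08, adjusted p = 8.09e-16). Among all 19938 genes these were the rises of rank 36 and rank 34.

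G0s2, the inhibitor that binds PNPLA2, read 6.56, 6.60 and 6.65 before and 10.79, 10.60 and 10.72 after differentiation in WT, and 6.38, 6.49 and 6.16 before and 11.19, 10.99 and 10.86 after in D1D2KO samples. It showed the largest rise of the 9 in either genotype, 17.2-fold in WT (log2 4.10, SE 0.10, limma adjusted p = 1.35e-14) and 25.5-fold in D1D2KO cells (4.67, SE 0.10, adjusted p = 1.79e-15). Those were the rises of rank 26 and rank 18 among all genes. D1D2KO samples lay below all WT samples before differentiation and above all of them after it. Neither difference between genotypes was called (limma adjusted p = 0.111 before and 0.0511 after). Genotypes were free of overlap for 39.3% of all genes before and for 30.9% after differentiation.

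Abhd5, the coactivator of PNPLA2 that perilipin 1 holds at rest, read 8.38, 8.40 and 8.55 in undifferentiated WT, 10.50, 10.30 and 10.66 in differentiated WT, 8.46, 8.49 and 8.31 in undifferentiated D1D2KO and 11.01, 10.84 and 10.62 in differentiated D1D2KO samples. The genotypes overlapped in both states. The rise was 4.11-fold in WT (log2 2.04, SE 0.11, limma adjusted p = 2.29e-10) and 5.30-fold in D1D2KO cells (2.41, SE 0.11, adjusted p = 1.80e-11), smaller than that of the lipase it activates.

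How inhibitor and coactivator moved against the lipase was read within each array, as the log2 signal of G0s2 or of Abhd5 minus that of Pnpla2, set to 0 at the mean of undifferentiated WT samples. For G0s2 the differentiated WT samples lay at 0.41, 0.25 and 0.31 and the differentiated D1D2KO samples at 0.41, 0.34 and 0.23, above every undifferentiated sample of their genotype. The shift was 0.32 log2 in WT and 0.51 in D1D2KO cells, and each had an exact two-sided permutation p of 0.1, the smallest that 3 against 3 samples allow. For Abhd5 differentiated samples lay at -1.72, -1.90 and -1.60 in WT and -1.60, -1.66 and -1.85 in D1D2KO cells. Relative to Pnpla2, Abhd5 thus fell by 1.74 in WT and by 1.75 in D1D2KO cells, each with an exact p of 0.1. Differentiated genotypes overlapped in both quantities and differed by 0.01 for G0s2 (exact two-sided p = 0.9) and 0.04 for Abhd5 (exact p = 0.8). A shift on this scale shows unequal change of a pair of probe sets and not their relative amounts of mRNA or protein.

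**Figure D2:**
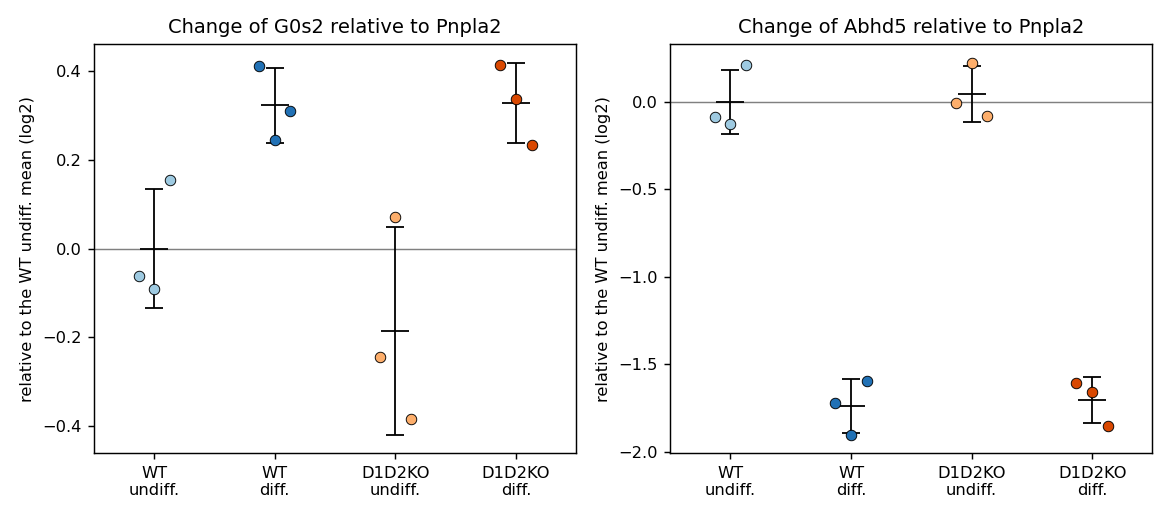
Log2 signal of G0s2 (left) and Abhd5 (right) minus that of Pnpla2 on the same array, relative to the mean of undifferentiated WT samples (grey line). Points are samples, the long bar is the group mean and the whiskers are 1 SD (n = 3). Differentiated samples lie at 0.23 to 0.41 on the left, above the line, and at -1.90 to -1.60 on the right, below it.

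Lipe, hormone-sensitive lipase, read 6.40, 6.42 and 6.48 in undifferentiated WT, 10.43, 10.22 and 10.54 in differentiated WT, 6.55, 6.35 and 6.42 in undifferentiated D1D2KO and 10.81, 10.76 and 10.35 in differentiated D1D2KO samples. Replicate 3 of differentiated D1D2KO fell within the WT range, and the other two D1D2KO samples lay above it. The gene rose 15.6-fold in WT (log2 3.97, SE 0.11, limma adjusted p = 6.12e-14) and 18.4-fold in D1D2KO cells (4.20, SE 0.11, adjusted p = 2.01e-14).

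Mgll, which acts on monoacylglycerol at the end of the cascade, read 6.79, 6.85 and 6.67 before and 8.46, 8.05 and 8.33 after differentiation in WT, and 6.15, 6.06 and 6.10 before and 8.61, 8.53 and 8.36 after in D1D2KO samples. All undifferentiated D1D2KO samples were below all undifferentiated WT samples, whereas the differentiated genotypes overlapped. Undifferentiated genotypes were free of overlap for 39.3% of all genes. Of the 8 rises that of Mgll was the smallest in each genotype, 2.85-fold in WT (log2 1.51, SE 0.10, limma adjusted p = 4.07e-09) and 5.25-fold in D1D2KO cells (2.39, SE 0.10, adjusted p = 8.42e-12).

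Pnpla3, or adiponutrin, a close relative of Pnpla2 known for its induction by feeding and for a human variant linked to fatty liver, read 5.25, 5.31 and 5.59 in undifferentiated WT, 9.05, 9.05 and 9.27 in differentiated WT, 5.56, 5.39 and 5.56 in undifferentiated D1D2KO and 8.92, 8.88 and 8.57 in differentiated D1D2KO samples. It was the one gene of the 8 whose rise was smaller in D1D2KO cells, 9.74-fold (log2 3.28, SE 0.11, limma adjusted p = 4.05e-13) against 13.4-fold in WT (3.74, SE 0.11, adjusted p = 1.10e-13). The difference between these rises is tested further on.

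Ces1d, a carboxylesterase also known as triacylglycerol hydrolase, read 4.71, 4.39 and 4.60 in undifferentiated WT, 7.43, 7.92 and 7.35 in differentiated WT, 4.91, 4.98 and 4.25 in undifferentiated D1D2KO and 8.59, 8.46 and 8.50 in differentiated D1D2KO samples. Undifferentiated samples lay close to the lower quartile of their arrays, which was 4.10 to 4.26, so the starting level was near the low end of the scale. It rose 8.0-fold in WT (log2 3.00, SE 0.17, limma adjusted p = 3.97e-10) and 13.97-fold in D1D2KO cells (3.80, SE 0.17, adjusted p = 1.26e-11). Ces1d belongs to a cluster of similar carboxylesterase genes, and whether its probes also bound transcripts of its neighbours was not tested.

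Pde3b, which degrades cyclic AMP and carries the antilipolytic action of insulin, read 6.99, 7.09 and 6.88 before and 9.56, 9.47 and 9.80 after differentiation in WT, and 6.73, 6.82 and 6.47 before and 10.20, 10.18 and 10.00 after in D1D2KO samples. As for G0s2, the D1D2KO samples lay below all WT samples before and above all of them after differentiation. Such a lack of overlap was found for 39.3% of all genes before and 30.9% after. For Pde3b the difference before was not called (limma adjusted p = 0.0805) and the one after was (adjusted p = 0.00520). The rise was 6.16-fold in WT (log2 2.62, SE 0.11, limma adjusted p = 6.93e-12) and 11.0-fold in D1D2KO cells (3.45, SE 0.11, adjusted p = 1.30e-13).

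Lipa, the acid lipase of the lysosome, read 9.59, 9.61 and 9.55 before and 8.85, 8.45 and 8.89 after differentiation in WT, and 9.63, 9.61 and 9.60 before and 8.90, 8.92 and 8.45 after in D1D2KO samples. All 6 undifferentiated samples fell in the narrow range from 9.55 to 9.63, and 1 differentiated sample of each genotype lay at 8.45, apart from the rest. The signal fell to 55.4% in WT (log2 -0.85, SE 0.12, limma adjusted p = 3.36e-05) and to 55.2% in D1D2KO cells (-0.86, SE 0.12, adjusted p = 2.38e-05). The lysosomal genes of a fixed list moved less. Of 10 measured, 1 rose and 5 fell in either genotype, with a median of -0.16 in WT and -0.19 in D1D2KO cells. Npc1, a cholesterol exporter of the lysosome, fell by 0.63 in WT and by 0.50 in D1D2KO cells, the hexosaminidase gene Hexa fell by 0.53 and by 0.70, and Npc2 rose by 0.72 and 0.44. The protease genes Ctsb and Ctsd, at 0.03 and -0.02 in WT, were not called.

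Macrophage genes, whose cells are rich in Lipa, moved in the same direction as Lipa. Of 13 on a fixed list, 12 fell in WT and 12 in D1D2KO cells, with medians of -0.89 and -0.83. The lysozyme gene Lyz2 fell by 2.32 in either genotype and Csf1r, the receptor for a macrophage growth factor, by 1.59 in WT and 1.57 in D1D2KO cells. Cd68, at -0.10 in WT, was not called. The mean log2 signal of the list went from 9.64 to 9.72 in undifferentiated WT samples to 8.67 to 8.88 in differentiated ones, and from 9.58 to 9.65 to 8.55 to 8.65 in D1D2KO samples. The lowest group mean of any of the 13 genes was 6.32, above the arrays' medians. Fibroblast genes fell as well. In WT 7 of 9 on that list were called lower (6 to 7 with 1 sample left out), with a median of -0.43. In D1D2KO cells 8 of 9 were, with a median of -0.95. Over all genes 19.4% were called downward in WT and 21.2% in D1D2KO cells. The part of macrophages or fibroblasts in the fall of Lipa was not tested.

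**Figure D3:**
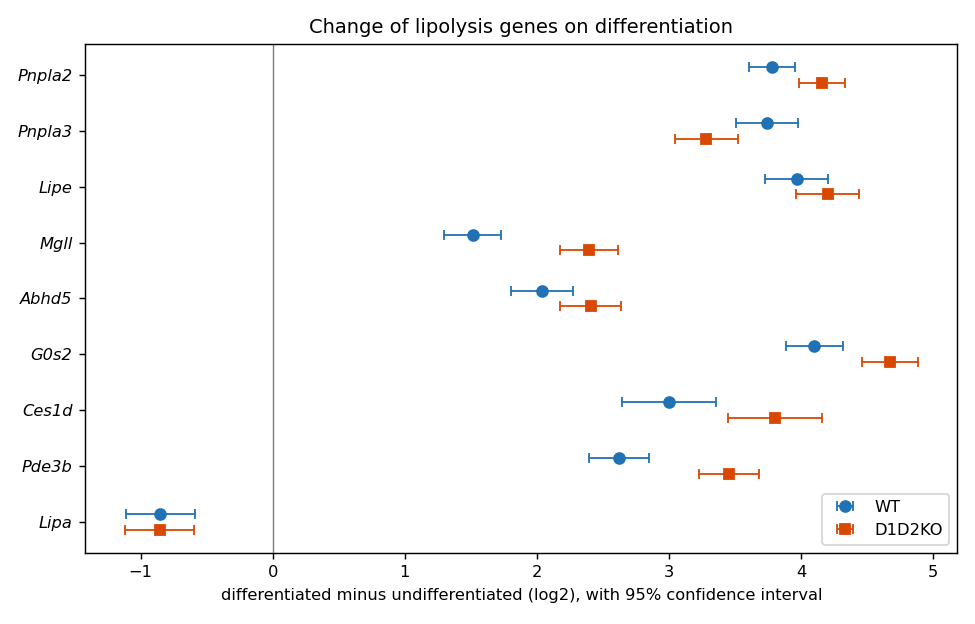
Log2 difference between differentiated and undifferentiated samples for each lipolysis gene in WT (circles) and D1D2KO cells (squares), with the 95% confidence interval of the fit (n = 3 per group). Intervals of 8 genes lie above 0 in both genotypes and those of Lipa lie below 0.

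The genes around the cascade were taken from lists given with their counts. Of 8 lipid droplet coat genes, 7 rose in either genotype, with medians of 1.48 in WT and 1.61 in D1D2KO cells. Plin1, the coat protein that gates lipolysis, rose by 4.58 and 5.11 log2, Cidec, which fuses droplets, by 4.56 and 5.02, and Plin4 by 3.76 and 3.75. Plin3, a coat protein found in most cell types, was at -0.17 and -0.10 and was not called. Of 3 measured genes for products of lipolysis, all rose in either genotype: the fatty acid binding proteins Fabp4 by 5.24 and 6.70 and Fabp5 by 2.54 and 2.79, and the glycerol channel Aqp7 by 3.49 and 3.97.

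Hormone receptors moved in different directions. Among 3 measured receptors that stimulate lipolysis, the thyrotropin receptor Tshr rose by 4.53 (WT) and 5.49 (D1D2KO) and the corticotropin receptor Mc2r by 3.67 and 3.87, both from starting means of 3.48 to 4.27, near the lower quartile of the arrays. The natriuretic peptide receptor Npr1 fell by 0.28 in WT, a call lost without replicate 1 of undifferentiated or replicate 3 of differentiated WT (adjusted p up to 0.0709). Receptors that restrain lipolysis were called up in 4 of 5 cases and down in 1, in both genotypes. The nicotinic acid receptor Hcar2 rose by 1.68 and 1.96, the lactate receptor Hcar1 by 1.57 and 1.71, and the neuropeptide Y receptor Npy1r fell by 3.89 in WT and fell by 4.07 in D1D2KO cells.

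Cyclic AMP signalling genes were split, with 4 up and 3 down of 10 in WT and 4 up and 4 down in D1D2KO cells. Prkar2b, the regulatory subunit of protein kinase A that is abundant in fat, rose by 3.24 and 4.59, the adenylyl cyclase Adcy5 by 1.08 and 1.85, and the catalytic subunit Prkacb fell by 0.71 and 0.74. Of 8 phosphodiesterase genes other than Pde3b, 3 rose and 2 fell in WT, and 3 rose and 3 fell in D1D2KO cells. These counts rested on single samples: 2 rose and 1 fell without replicate 1 or 2 of undifferentiated or replicate 2 or 3 of differentiated WT, and in D1D2KO cells 1 rose and 2 fell without replicate 2 or 3 of the undifferentiated or replicate 1 or 2 of the differentiated samples. Their changes in WT ran from -0.59 for Pde3a, the isoform closest to Pde3b, to 0.55 for Pde2a and for Pde4d, against the 2.62 of Pde3b. In D1D2KO cells Pde3a fell by 0.81 and Pde4d rose by 0.80.

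Related lipases and esterases outside the 9 showed medians near 0, 0.11 in WT and 0.13 in D1D2KO cells. Of 16 genes 7 rose and 4 fell in WT, and 6 rose and 4 fell in D1D2KO cells. The largest rises were those of Ces1f, a neighbour of Ces1d in the carboxylesterase cluster, by 2.50 and 3.15, and of Lpl, which works outside the cell on lipoproteins, by 1.92 and 2.11. Endothelial lipase (Lipg) fell by 1.18 and 0.95. Abhd4 and Pnpla6, at -0.01 and 0.07 in WT, were not called.

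**Figure D4:**
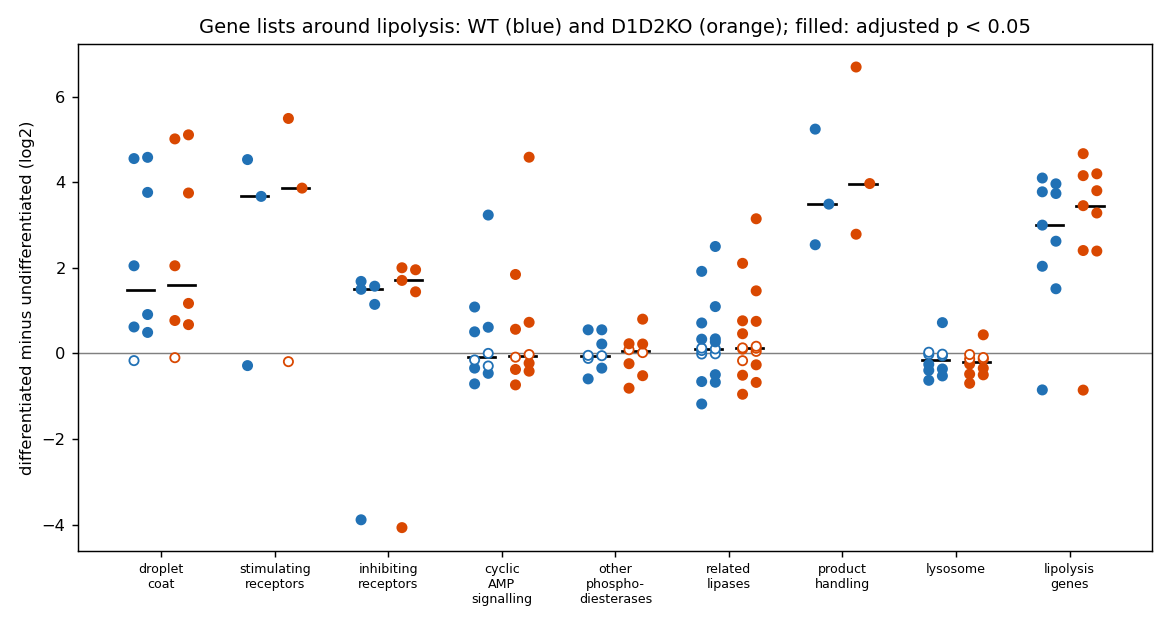
Log2 difference between differentiated and undifferentiated samples for each measured gene of 8 lists around lipolysis and for the 9 lipolysis genes, in WT (blue) and D1D2KO cells (orange). Each point is a gene, filled where the adjusted p is under 0.05, and the black bar is the median of the list. Medians run from -0.19 for the lysosome list to 3.97 for the 3 product handling genes in D1D2KO cells, and the 9 lipolysis genes have medians of 3.00 and 3.45.

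Genotypes were then compared in undifferentiated cells. Of the 9 genes 1, Mgll, was called, lower in D1D2KO, against 8.02% of all genes called, 4.4% upward and 3.62% downward. Its 3 D1D2KO samples, at 6.06 to 6.15, lay below the WT samples at 6.67 to 6.85, a difference of -0.66 log2 (SE 0.10, limma adjusted p = 0.00108). With each sample left out in turn the difference stayed between -0.71 and -0.62 and its adjusted p between 0.000292 and 0.0102. G0s2 and Pde3b were also lower in all 3 D1D2KO samples than in any WT sample, by 0.26 (SE 0.10, adjusted p = 0.111) and 0.31 (SE 0.11, adjusted p = 0.0805), without passing the threshold. Groups did not overlap for these 3 of the 9 genes, and for 39.3% of all genes.

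The other members differed by less. Pnpla2 was at -0.07 (95% confidence interval -0.25 to 0.10), Abhd5 at -0.03 (-0.26 to 0.20), Lipe at 0.01 (-0.23 to 0.25) and Lipa at 0.03 (-0.23 to 0.29). Pnpla3 stood at 0.12 (-0.11 to 0.36) and Ces1d at 0.15 (-0.21 to 0.50). These intervals leave room for differences of up to 0.50 log2 for Ces1d and 0.36 or less in size for the rest. Among the genes around the cascade, Fabp4 was lower in undifferentiated D1D2KO cells by 1.20, the phosphodiesterase Pde1a by 0.76, Adcy5 by 0.54 and the prostaglandin receptor Ptger3 by 0.49, and these 4 calls held with each sample left out in turn. The coat gene Plin5 was called higher, by 0.44. Prkar2b was called lower by 0.49, Tshr by 0.46, Pde3a by 0.36 and Cidea by 0.34. The calls of these genes and of Plin5 each ended in some fits that leave out 1 sample (limma adjusted p up to 0.172).

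In differentiated cells 4 of the 9 genes were called, all higher in D1D2KO, against 13.7% of all genes called, 6.25% upward and 7.42% downward. The median of the 9 was 0.30 log2, against 0.03 over all genes. Groups did not overlap for 5 genes, against 30.9% of all genes, with Pnpla2, G0s2, Ces1d and Pde3b higher and Pnpla3 lower in D1D2KO.

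Ces1d differed most. Its D1D2KO samples lay at 8.46 to 8.59 and its WT samples at 7.35 to 7.92, a difference of 0.95 log2 or 1.93-fold (SE 0.17, limma adjusted p = 0.00162), which was the rise of rank 8 among all genes. Pde3b, at 10.00 to 10.20 against 9.47 to 9.80, was 1.43-fold higher (log2 0.52, SE 0.11, adjusted p = 0.00520). Both calls held with each sample left out in turn, with an adjusted p of up to 0.00943 for Ces1d and 0.0306 for Pde3b.

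Pnpla2, at 10.52 to 10.66 against 10.24 to 10.30, was 1.23-fold higher in D1D2KO cells (log2 0.30, SE 0.08, limma adjusted p = 0.0249). That call ended without replicate 2 of differentiated WT or replicate 1 of differentiated D1D2KO, where the adjusted p reached 0.0815. Abhd5, at 10.62 to 11.01 against 10.30 to 10.66, was 1.27-fold higher with overlapping samples (0.34, SE 0.11, adjusted p = 0.0492), and the call ended in 10 of the 12 fits that leave out a sample, all but those without replicate 3 of either differentiated group. Without replicate 2 of differentiated WT, or without replicate 1 of differentiated D1D2KO, 2 of the 9 genes were called in place of 4. Without replicate 3 of differentiated D1D2KO 6 were called, all higher.

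G0s2 differed by 0.31 (SE 0.10, limma adjusted p = 0.0511) and Pnpla3 by -0.34 (SE 0.11, adjusted p = 0.0547), so neither passed. G0s2 passed without replicate 1 of differentiated WT, replicate 3 of undifferentiated D1D2KO or replicate 3 of differentiated D1D2KO, at an adjusted p of 0.0335 at the lowest, and Pnpla3 without replicate 3 of undifferentiated WT, at 0.0428. Lipe, at 0.24 (95% confidence interval 0.00 to 0.48, adjusted p = 0.153), passed without replicate 3 of differentiated D1D2KO (adjusted p = 0.0242). Mgll, the gene that differed before differentiation, was now at 0.22 (0.00 to 0.44, adjusted p = 0.154). Lipa was at 0.03 (-0.23 to 0.29, adjusted p = 0.900).

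Replicates deviated together across the members. All 9 genes lay below their group mean in replicate 3 of differentiated D1D2KO, by 0.17 log2 on average, and all 9 above it in replicate 1 of that group, by 0.13. In replicate 2 of differentiated WT 8 of 9 lay below, by 0.09 on average, and in replicate 3 of that group 8 of 9 lay above, by 0.08. The 9 adipocyte markers deviated in these 4 samples by -0.06, 0.02, -0.04 and 0.14. Undifferentiated D1D2KO samples also deviated, with all 9 genes above the mean in replicate 1, by 0.07 on average, and 7 of 9 below it in replicate 3, by 0.10, where the markers deviated by 0.00 and -0.06. Correlations of the deviations between 2 members over the 12 samples had a median of 0.51 over 36 pairs and ran from -0.42 for Mgll with Ces1d to 0.91, with 30 pairs above 0. Lipa, which fell on differentiation, lay below its group mean in replicate 3 of differentiated D1D2KO and replicate 2 of differentiated WT, along with most of the genes that rose.

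Markers of cell types moved with this genotype difference. The mean log2 signal of the 9 adipocyte markers was 9.60 to 9.83 in differentiated WT and 10.05 to 10.15 in differentiated D1D2KO samples, and 6 of 9 were called higher in D1D2KO (3 of 9 without replicate 1 or 2 of differentiated WT or replicate 2 of differentiated D1D2KO). The 9 fibroblast markers went the other way, at 10.73 to 10.77 in WT and 10.34 to 10.46 in D1D2KO, with 4 of 9 called lower (2 or 3 when any 1 sample was left out). Macrophage markers lay at 8.67 to 8.88 and 8.55 to 8.65. The 7 brown adipocyte markers averaged 6.07 to 6.31 in WT and 6.59 to 6.75 in D1D2KO samples, with 4 of 7 called higher in D1D2KO and all 7 differences positive, from 0.12 for Dio2, a deiodinase, to 1.28 for Cox8b, a subunit of the respiratory chain. That count was 2 without replicate 2 of differentiated WT or replicate 1 or 2 of differentiated D1D2KO. Of these brown adipocyte markers Ucp1 had differentiated group means of 3.999 in WT and 4.315 in D1D2KO cells. Both lay near the lower quartile of the arrays, 4.10 to 4.26, so its difference came from the low end of the scale. The lowest differentiated group mean among the other brown adipocyte markers was 5.47, that of Cidea in WT cells. The lowest group mean among the adipocyte and fibroblast markers here was 5.87, that of Fap in D1D2KO cells, above the lower quartile of every array, and the part of these cell types in the differences of the lipolysis genes was not tested. In the undifferentiated state the adipocyte list stood at 5.70 to 5.72 in WT and 5.50 to 5.61 in D1D2KO samples. Of its 9 genes 1 was called lower and 1 higher, against 8.02% of all genes called. Adipoq was lower in D1D2KO by 0.97 log2 (limma adjusted p = 8.43e-05), a call that held with each sample left out. Lep, with group means of 3.84 and 4.40 near the lower quartile, was higher by 0.56 (adjusted p = 0.0124). Its call ended without replicate 1 or 3 of undifferentiated D1D2KO.

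Around the cascade, Prkar2b was 0.86 log2 higher in differentiated D1D2KO cells (SE 0.11, limma adjusted p = 0.000112), a call that held with each sample left out. Of the 8 other phosphodiesterase genes 4 were called lower, where Pde3b was higher. Pde3a was lower by 0.58 (SE 0.09, adjusted p = 0.000541), Pde2a by 0.44, Pde1a by 0.42 and Pde4b by 0.47, and the last call ended without replicate 3 of differentiated D1D2KO (adjusted p = 0.0583). Of the 8 coat genes Plin1 (0.55) and Cidec (0.62) were called higher, and both calls ended without replicate 2 of differentiated WT or replicate 1 of differentiated D1D2KO, and that of Cidec also without replicate 2 of differentiated D1D2KO (adjusted p up to 0.0622 for Plin1 and 0.0865 for Cidec). Ces1f was higher by 0.63, a call that ended without replicate 2 of differentiated D1D2KO (adjusted p = 0.0535).

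**Figure D5:**
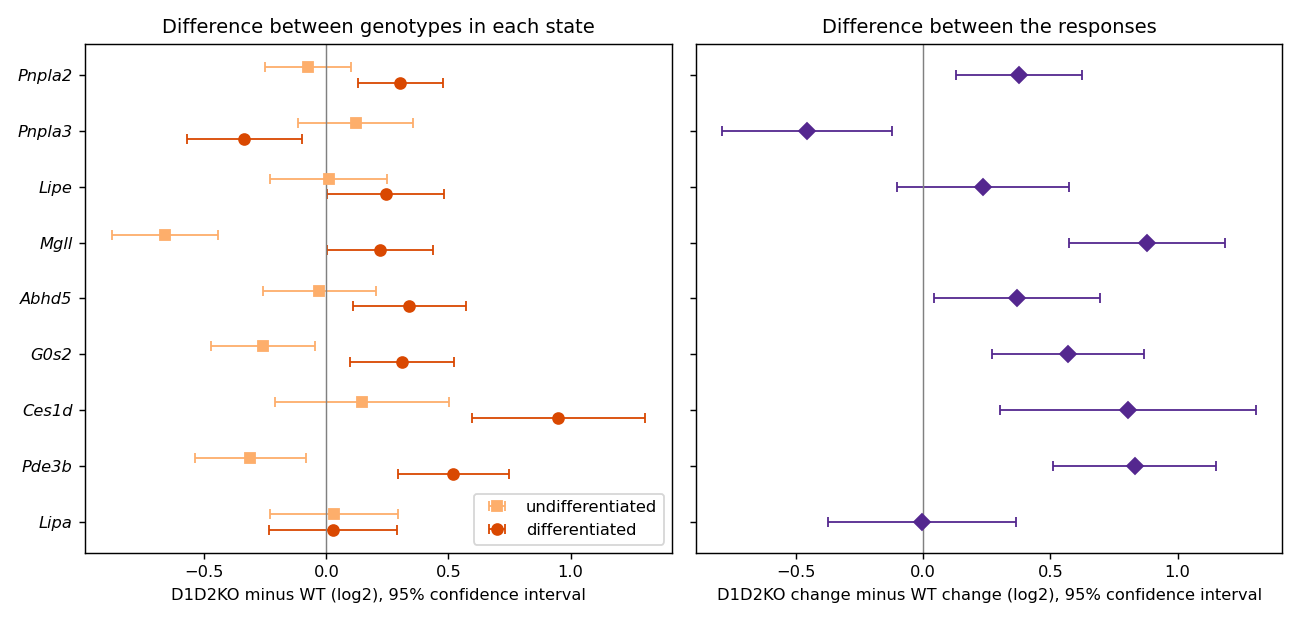
Left, log2 difference between D1D2KO and WT for each lipolysis gene in undifferentiated (squares) and differentiated cells (circles). Right, the difference between the differentiation responses of the genotypes. Bars are 95% confidence intervals of the fit without adjustment for the number of genes (n = 3 per group), and those of Mgll and Pde3b on the right lie between 0.51 and 1.19.

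The difference between the responses asks whether a gene changed by another amount on differentiation in D1D2KO than in WT cells. Of the 9 genes 2 were called, both with a larger rise in D1D2KO, against 1.46% of all genes called and 0.747% called upward. The median of the 9 was 0.38, against -0.01 over all genes, and 7 of the 9 were positive. Mgll rose by 0.88 log2 more in D1D2KO cells (SE 0.14, limma adjusted p = 0.00559). Pde3b rose by 0.83 more (SE 0.15, adjusted p = 0.0103). Both calls held with each sample left out in turn, with an adjusted p of up to 0.0208 for Mgll and 0.0344 for Pde3b.

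The parts that make up the larger response differed between these genes. For Mgll the undifferentiated difference of -0.66 made up most of it, and the differentiated genotypes stood 0.22 apart. For Pde3b the undifferentiated difference was -0.31 and the differentiated one 0.52. Of 10 measured cyclic AMP signalling genes 2 were called in this contrast and 8 were not, with a list median of 0.09. The 2 were Prkar2b and Adcy5, which rose more in D1D2KO cells by 1.35 (limma adjusted p = 0.000473) and 0.76 (adjusted p = 0.00718). Of the 8 other phosphodiesterase genes 0 were called, with a median of -0.09. Fabp4 rose by 1.45 more in D1D2KO cells (adjusted p = 0.000452). The calls of Prkar2b, Adcy5 and Fabp4 held with each sample left out. All contrasts with a shared group rest on the same 3 samples of it, so they are not independent of each other.

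The remaining members did not pass this test. G0s2 stood at 0.57 (SE 0.14, limma adjusted p = 0.0588) and passed without replicate 3 of differentiated D1D2KO (adjusted p = 0.0295). It also passed with the replicate number as a block, under quantile normalization, among genes above the median signal, with trended robust eBayes and with array weights. Over all alternatives its limma adjusted p ran from 0.0218 to 0.166. Ces1d was at 0.80 (SE 0.24, adjusted p = 0.119) with a 95% confidence interval of 0.30 to 1.31. It passed under quantile normalization alone (adjusted p = 0.0371). Pnpla2 was at 0.38 (0.13 to 0.63, adjusted p = 0.145) and Abhd5 at 0.37 (0.04 to 0.70, adjusted p = 0.357). Pnpla3 was the member with the most negative value, -0.46 (-0.79 to -0.12, adjusted p = 0.213). Lipe was at 0.23 (-0.10 to 0.57, adjusted p = 0.676), and Lipa at -0.00 (-0.37 to 0.37, adjusted p = 0.998), so the data leave room for a difference of up to 0.37 log2 in the response of Lipa in either direction.

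Genes with the most similar patterns were taken by Pearson correlation of log2 signals over the 12 samples, which fall into 2 states, so that r mainly carries the change on differentiation and is given as a description. Between 204 genes for Lipa and 916 for Abhd5 exceeded an r of 0.95. Closest to Pnpla2 were Ephx2, Adhfe1 and Lgals12, with r of 0.999, 0.998 and 0.998, and closest to Lipe were Cat (catalase), Lgals12 and Plin1, each at 0.999. Abhd5 was nearest to Ahcyl2, Plin1 and Aldh6a1, and G0s2 to Nabp1, Gpd1 and Scarb1. The gene nearest to Ces1d was Cebpa, at 0.994, followed by Cpt2 and Coq9. Pde3b was nearest to Arxes2, Pfkfb3 and Decr1. Pnpla3 was nearest to Pcx, Lrg1 and Fasn, which encode pyruvate carboxylase, a secreted glycoprotein and fatty acid synthase, with r of 0.997, 0.997 and 0.995. Pcx, Lrg1 and Fasn rose by 4.60, 5.71 and 2.99 in WT and by 4.54, 5.11 and 2.84 in D1D2KO cells. Around Mgll stood S100a1, Prxl2a and Ak4, each at 0.995, with undifferentiated genotype differences of -0.44, -0.68 and -0.47. Lipa was followed by Adap2, Gucy1a1 and App, with r of 0.994, 0.988 and 0.987.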

How the data were processed

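Groups and replicate numbers of the 12 samples were read from their titles. The authors deposited 1 table of 35556 probe sets, taken as log2 signals already normalized between arrays, with the base inferred from the range of 1.15 to 14.17. Their summary method and detection calls were not given in the sources used here. Column medians lay between 5.61 and 5.69. The platform annotation gave 1 gene for 21789 probe sets, several for 1621 and none for 12146, and RefSeq's table for GRCm38.p6 held 21698 of those gene identifiers. Where a gene had several probe sets (999 genes), the brightest over all samples stood for it. No gene was removed for low signal.

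All samples entered 1 limma 3.58.1 model of the 4 group means (R 4.3.3, lmFit and eBayes), checked on simulated data, with 5 two-sided contrasts. Within-array differences were tested by exact permutation (scipy 1.17.1). Members, lists and the rule for named genes were chosen with earlier results of these data known. The rule took all members, Dgat1, Dgat2, Adipoq, Pparg and Cebpa, up to 3 called genes per list with the largest change in a contrast, up to 2 uncalled ones with the highest signal, and the 3 genes most similar to each member. Pde1a in differentiated cells was added after its value was seen. Lists of brown adipocyte and hepatocyte markers had 5 of 7 and 1 of 4 genes called up in either genotype on differentiation, and 1 of the 7 called down. The hepatocyte gene called in D1D2KO cells, Alb, was not called without replicate 1 of the undifferentiated or replicate 3 of the differentiated samples (limma adjusted p up to 0.0859).

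Alternatives were centring or quantile normalization of arrays, a filter at the median signal, averaging or testing every probe set of a gene, fitting 2 groups alone, trended robust eBayes, array weights, a replicate block and omitting samples in turn. Deviations of equally numbered samples correlated above 0.1 in all 3 pairs only between the D1D2KO states. The correlations were 0.101, 0.110 and 0.176 there, against -0.147 to 0.0522 for unequal numbers. The main model and the permutation tests used no pairing. Replicate number entered only as the replicate block among the alternatives, within each genotype or within each state.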

Additional observations from a re-analysis of the deposited data

Results flagged for a closer look

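Differentiation changed Mgll and Pde3b by unequal amounts in the genotypes, by the limma test of the difference between the responses. Over all genes 1.46% were called in this test. Mgll rose by 0.881 log2 more in D1D2KO than in WT cells (adjusted p = 0.00559). Pde3b rose by 0.831 more (adjusted p = 0.0103). Over the fits that leave out 1 sample, the values ran from 0.77 to 0.97 for Mgll and from 0.73 to 0.92 for Pde3b, all called. Adipocyte markers moved with this contrast, 3 of 9 called with a larger rise in D1D2KO cells (2 to 4 with 1 sample left out). Of these the call of Retn (adjusted p = 0.0484) ended in 10 of the 12 fits that leave out 1 sample. The part of the adipocyte markers was not tested.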

How the results depend on the processing

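Counts of members called on differentiation, 9 in either genotype, were 9 in every alternative run, and so were their directions. Over 936 member results under an alternative, 884 kept direction and side of the threshold, 17 lost and 18 gained a call, and 17 uncalled results changed sign. In undifferentiated cells 1 member was called between genotypes, and 2 with array weights. In differentiated cells 4 were called, 2 with only the 2 groups compared, and 2 to 6 with 1 sample left out. For the difference in response 2 were called, 4 under quantile normalization, and 2 to 3 with 1 sample left out. The Abhd5 genotype call also ended with centring, with all probe sets, with only the 2 groups compared and under the replicate block, and that of Pnpla2 with only the 2 groups compared. G0s2 gained this call under quantile normalization, above the median signal and with trended robust eBayes, and Pnpla3 under the last 2 of these. The replicate block brought the members called between differentiated genotypes to 3 and those called for the difference in response to 3, by the loss of Abhd5 and the gain of G0s2, and changed no other member call. Uncalled values that changed sign were, under quantile normalization, 0.079 for Abhd5 and -0.0053 for Ces1d between undifferentiated genotypes, and 0.020 for Abhd4 and -0.027 for Ctsb in WT differentiation. Centring gave 0.0053 for Abhd4, -0.010 for Lipe between undifferentiated genotypes and 0.011 for Lipa in the difference in response, and array weights gave 0.051 for that Lipa value and 0.0071 for Ctsd. With 1 sample left out, values ran from -0.063 to 0.026 for Abhd5 and -0.046 to 0.051 for Lipe between undifferentiated genotypes, from -0.11 to 0.18 for Lipa between differentiated genotypes, from -0.14 to 0.15 for Lipa in the difference in response, and in WT differentiation from -0.037 to 0.0059 for Abhd4 and -0.084 to 0.047 for Ctsd. Genes called over the whole array moved more. Between undifferentiated genotypes 1600 became 834 under quantile normalization, 881 above the median signal, 2597 with only the 2 groups and 4224 with array weights, and 339 to 1967 with 1 sample left out. Between differentiated genotypes 2726 became 1184 with only the 2 groups and 1344 to 2822 with 1 sample left out, and for the difference in response 291 became 537 above the median signal, 450 with trended robust eBayes, 604 with array weights and 159 to 449 with 1 sample left out. The causes of these changes were not tested. Background levels are unknown here, so folds from low starting signals such as that of Ces1d may be understated.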
